A study of Mus musculus with 6 samples.

Results

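The 34 genes described here are direct p53-activated genes, chosen by symbol as targets that p53 switches on, without the BCL2 family, the cell cycle inhibitors and the regulators of p53 itself. Each symbol matched 1 row of the gene count table, which held 49585 gene identifiers. All 34 were among the 13744 genes with enough counts to be tested. Their levels were read in 6 cultures of a mouse bone marrow leukaemia that the labels call MA9 leukemia, with AML as the cell line. In 3 cultures the Gata2 alleles were floxed (Gata2 f/f), and in the other 3 the gene was labelled as knocked out (Gata2 -/-, also written Gata2 KO, with Cre in the sample descriptions). They are called the floxed and the knockout libraries, always in the order of their numbers 1, 2 and 3. The labels do not say which promoter drove Cre, whether the floxed cultures had Cre, or whether the cultures of a genotype came from separate leukaemias. All 6 cultures were grown with IL-3, IL-6 and SCF, and all received 5 uM Nutlin for 18 h before poly(A) RNA was sequenced. No culture without Nutlin was analysed, so the values below are levels under Nutlin and not responses to it.

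p53 is a transcription factor that is kept scarce in unstressed cells by Mdm2, a ubiquitin ligase that binds it and marks it for destruction. Nutlin occupies the p53-binding pocket of Mdm2, so p53 accumulates without DNA damage and binds response elements near its target genes. Those targets arrest the cell cycle, promote cell death, repair DNA and adjust metabolism, and in myeloid leukaemia p53 activation is a route to arrest, death or differentiation. GATA2 binds DNA through zinc fingers and helps to maintain early blood cells. The comparison of the genotypes addresses whether the level of p53 target transcripts under Nutlin differs with Gata2.

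Total counts ranged from 17138687 to 21203874 in the 4 libraries numbered 1 and 2, and were 25158033 and 26440960 in the Gata2 f/f and Gata2 KO libraries numbered 3. The targeted gene, Gata2, was at 33.6, 22.3 and 18.4 CPM in the floxed libraries, where CPM are counts scaled to the library size. In those labelled as knockouts it was at 5.44, 43.3 and 4.33 CPM. Gata2 KO 2 thus held the most Gata2 of all 6 libraries, against its label, so it is called the library labelled Gata2 KO 2, and each genotype result that includes it carries this limit. Libraries with the same number deviated together from their genotype means. Yet Gata2 f/f 1 correlated less in this with Gata2 KO 1 (0.29) than with the library labelled Gata2 KO 2 (0.46). What a number stands for is not given in the labels. Stem and progenitor markers summed to between 806 and 1113 CPM in the 6 libraries, a sum that hid single markers with other layouts. Of these, chosen after their values were seen, the surface antigen gene Cd34 was at 35.1, 39.2 and 33.6 CPM in the floxed libraries against 4.68, 37.1 and 6.68 CPM in the knockout libraries. The receptor gene Kit was at 1.34 CPM in Gata2 KO 3 and between 28.5 and 88.7 CPM in the other 5. Lymphoid markers summed to between 2.29 and 7.44 CPM, mast cell and basophil markers to between 5.88 and 21.6 CPM, and erythroid and megakaryocyte markers to between 3.77 and 17.8 CPM. Late neutrophil markers summed to 297, 589 and 2087 CPM in the floxed libraries and to 1894, 629 and 3918 CPM in the knockout libraries. Monocyte and macrophage markers summed to 1030, 1150 and 5705 CPM in the floxed libraries and to 2275, 1840 and 7318 CPM in the knockout libraries. In bulk RNA, fewer cells of a type and less RNA per cell cannot be told apart.

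The promoters of these genes were read for the p53 response element, since a shared element is the sequence feature that links direct targets of p53. The element is a pair of 10-base repeats, searched here with the C at the fourth and the G at the seventh base of each repeat required, at most 2 mismatches over the 20 bases, and 0 to 13 bases between the repeats. It is its own reverse complement, so 1 strand covers both. RefSeq promoters on GRCm38.p6, from 250 bases before to 50 bases after a transcription start, were matched by symbol for 27 of the 34 genes. Xpc, Trp53cor1, Tnfrsf10b, Perp, Pvt1, Trp53inp1 and Zmat3 had no entry. An element was found for 5 of the 27 genes (18.5%), against 4.71% of the 27025 genes of the table with a promoter entry and 4.59% of the tested genes with one. In 4 of the 27 (14.8%) the repeats were adjacent, against 0.377% of all genes with an entry. Of the 37 promoters of the 27 genes 13.5% held an element, against 4.09% of all 32851 promoters. The genes were chosen as direct p53 targets, so a share above that of all genes is no test of these data. A match describes the letters in this window and does not show binding. Sequence outside the window was not searched, so a gene without a match here may still have an element. The 5 matches are shown because they place the element within 203 bases of a RefSeq transcription start of a gene measured here. They are written 5′ to 3′ on the strand of the gene, with the repeats in capitals and 20 bases of flank on each side in lower case.
Rps27l (chr9:66946276-66946335, plus strand): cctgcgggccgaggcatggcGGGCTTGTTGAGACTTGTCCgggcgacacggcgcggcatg
Ccng1 (chr11:40755442-40755501, minus strand): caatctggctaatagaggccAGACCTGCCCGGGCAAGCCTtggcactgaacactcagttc
Ckap2 (chr8:22185983-22186042, minus strand): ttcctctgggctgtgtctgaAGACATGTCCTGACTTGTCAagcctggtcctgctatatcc
Zfp365 (chr10:67912686-67912745, minus strand): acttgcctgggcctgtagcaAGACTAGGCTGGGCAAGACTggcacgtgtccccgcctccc
Sesn1 (chr10:41887233-41887295, plus strand): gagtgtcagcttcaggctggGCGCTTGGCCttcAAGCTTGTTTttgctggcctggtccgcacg
The first base of the element lay 117 bases before the RefSeq start in Rps27l, 195 in Ccng1, 203 in Ckap2, 63 in Zfp365 and 186 in Sesn1. For Sesn1 the start used was 41887439, inside the GENCODE gene span of 41809935 to 41908424. For Rps27l it was 66946413, inside the span of 66946086 to 66949516. The Sesn1 and Rps27l matches thus lay inside the annotated gene, outside its exons. Rps27l and Ccng1 had 1 mismatch, and the other 3 had 2. Only the Sesn1 match had bases between its repeats, and it had 3.

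The level of the 34 transcripts, averaged over the 6 libraries and divided by exon length, spanned from 386 CPM per kb for Rps27l to 0.118 CPM per kb for Eda2r. Rps27l encodes a ribosomal protein S27-like protein, and its count may be uncertain if similar genes such as Rps27 share its reads, which was not tested. On the same per-length scale Ccng1 stood at 172 CPM per kb and Phlda3 at 69.2, and Ei24, Dram1, Dglucy, Sesn2 and Xpc lay between 20.7 and 28.9. The lowest levels per length after Eda2r were those of Pvt1, Ddit4l and Zfp365, at 0.324, 0.415 and 0.642 CPM per kb. The genes that carry an adjacent element in the printed promoters thus include the 2 highest levels per length (Rps27l and Ccng1) and 1 of the 4 lowest (Zfp365).

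Between the genotypes, none of the 34 genes passed an adjusted p of 0.05 in edgeR's quasi-likelihood test with Benjamini-Hochberg adjustment over all genes tested. The same test called 0% of the 13744 genes, and only Perp of the 34 had an unadjusted p under 0.05, as did 1.24% of all genes. With the library number as a block, the count called was again 0 of 34 and 0% of all genes at the adjusted threshold. At an unadjusted p under 0.05 the blocked fit held 6 of the 34 (Phlda3, Perp, Plk3, Fas, Plk2 and Gdf15) against 10.7% of all genes. DESeq2 with the same block called 2 of the 34, Perp and Phlda3, against 1.62% of all genes. When the library labelled Gata2 KO 2 was left out of the blocked edgeR fit, Perp alone was called, against 0.378% of the 14287 genes then tested. Leaving it out of the edgeR fit without the block called 0 of the 34 and 0 of all genes.

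In direction, 23 of the 34 genes had a log2 fold change (Gata2 KO over Gata2 f/f) above 0, against 52.5% of all genes. The median over the 34 was 0.17, and over all tested genes it was 0.02. Without Gata2 f/f 1 or without Gata2 KO 3 the median of the 34 turned to -0.04 and -0.07, and without Gata2 f/f 3 it was 0.44, so its sign rests on single libraries. In no gene were the 3 Gata2 KO libraries all above the 3 Gata2 f/f libraries, nor all below, against 2.64% and 2.78% of all genes. Of 11 tested late neutrophil markers, 10 had a log2 fold change above 0, with a median of 1.59. None of them was called by edgeR with or without the block, 6 were called higher by DESeq2 with the block, and their summed levels overlapped between the genotypes. The part of these cells in the values of the 34 genes was not tested.

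**Figure D1:**
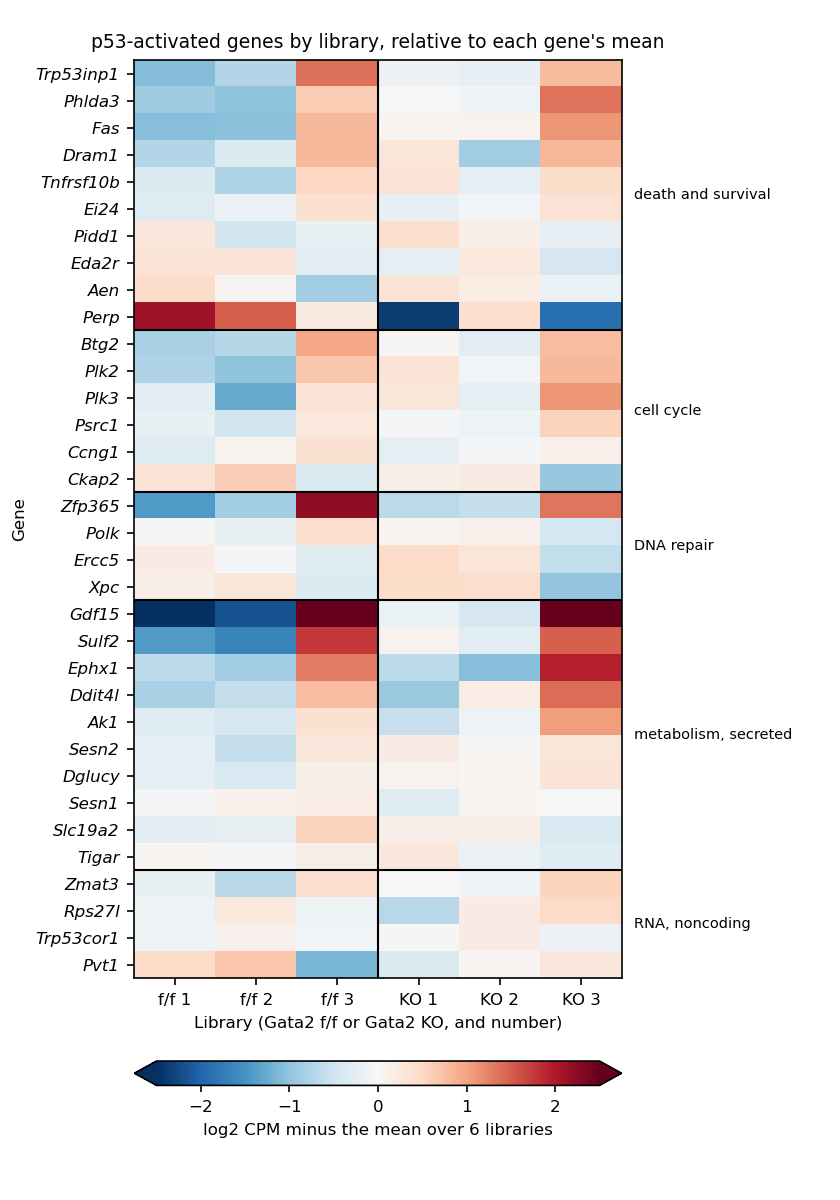
Level of each of the 34 genes in each of the 6 libraries, as log2 CPM minus the gene's own mean over the libraries (colour, saturating at 2.5 units either way), with genes in rows by role and libraries in columns by genotype and number. For 20 of the 34 genes both columns numbered 3 are above the other 4 columns.

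Compared within a library number, the Gata2 KO library had the higher CPM in 24 of the 34 genes for number 1 (52.6% of all genes), in 24 for number 2 (54.1% of all genes) and in 16 for number 3 (49.7% of all genes). The median log2 difference of the 34 was 0.21, 0.32 and -0.03 for numbers 1, 2 and 3, against 0.03, 0.03 and -0.01 over all genes. So the library labelled Gata2 KO 2 had a median difference of the same sign as Gata2 KO 1. In 9 of the 34 the Gata2 KO library was higher in all 3 numbers (Plk3, Phlda3, Dglucy, Sesn2, Plk2, Fas, Psrc1, Zmat3 and Gdf15), against 20.7% of all genes. In 4 it was lower in all 3 (Perp, Ckap2, Sesn1 and Eda2r), against 17.7% of all genes. A further 12 were higher in the Gata2 KO library of numbers 1 and 2 and lower in that of number 3, against 15.7% of all genes: Tnfrsf10b, Pidd1, Polk, Zfp365, Ercc5, Btg2, Slc19a2, Sulf2, Trp53cor1, Ei24, Xpc and Trp53inp1.

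**Figure D2:**
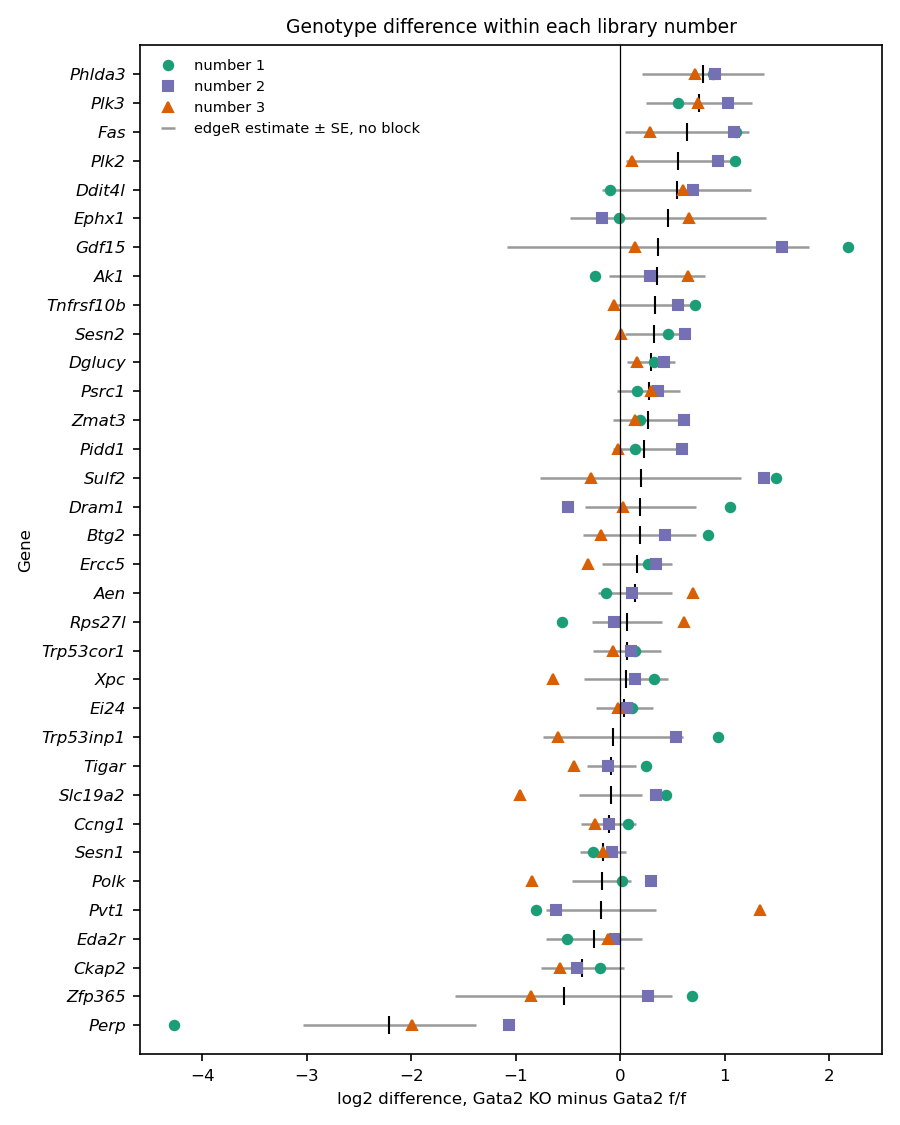
Log2 difference in CPM, Gata2 KO minus Gata2 f/f (horizontal), within library numbers 1, 2 and 3 (coloured symbols) for each of the 34 genes (rows, ordered by the fitted log2 fold change, drawn as a tick with its SE). In Perp all 3 symbols lie left of 0, in Phlda3 all 3 lie right of it, and in Pvt1 number 3 stands opposite the other 2.

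Among the 10 genes of death and survival signalling, 7 had a log2 fold change above 0. None was called between genotypes by edgeR with all 6 libraries, and DESeq2 with the block called Perp and Phlda3. Perp (ENSMUSG00000019851.8, GRCm38 chromosome 10, 18845020 to 18857073, plus strand) encodes a tetraspan membrane protein of desmosomes and an effector of p53-dependent apoptosis. Its level was 12.8, 8.38 and 3.46 CPM in the floxed libraries against 0.573, 3.96 and 0.798 CPM in the knockout libraries. The lowest 2 libraries were Gata2 KO 1 and 3, while the library labelled Gata2 KO 2 lay above Gata2 f/f 3, so the genotypes overlapped. Of the 10 stem and progenitor markers, Cd34, Sox4 and the targeted gene Gata2 had the same pair of lowest libraries. The lowest pair was Gata2 KO 3 and Gata2 f/f 3 for Kit, Flt3, Myb and Mecom, and 2 floxed libraries for Meis1, Hoxa9 and Spi1. The part of progenitor cells in the Perp values was not tested. Perp averaged 8.21 ± 4.66 CPM (SD) over the floxed and 1.78 ± 1.90 CPM over the knockout libraries, a log2 fold change of -2.21 ± 0.83 (SE) with an adjusted p of 1.00 in edgeR's quasi-likelihood test. Under the block edgeR gave -2.42 ± 0.65 with an adjusted p of 0.403. DESeq2 with the block gave -2.48 with an adjusted p of 0.00181. With the block and without the library labelled Gata2 KO 2, edgeR gave -3.27 with an adjusted p of 0.0138. By construction, Gata2 f/f 2 adds nothing to the genotype difference in that fit. Without the same library and without the block, edgeR gave -3.57 with an adjusted p of 0.91. Over the fits tried, the adjusted p of Perp ran from 0.00112 to 1, and its log2 fold change from -3.57 to -1.58, without a change of sign. The DESeq2 call was lost without Gata2 f/f 1 or without Gata2 KO 1, with adjusted p of 0.768 and 0.374. The floxed libraries held 224, 188 and 87 Perp counts and the knockout libraries 12, 73 and 19.

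Phlda3 (ENSMUSG00000041801.5, chromosome 1, 135766119 to 135769136, plus strand) encodes a pleckstrin homology domain protein that restrains Akt, a survival kinase. It stood at 49.5, 45.2 and 142 CPM in the floxed libraries against 91.5, 84.6 and 234 CPM in the knockout libraries. Each Gata2 KO library was above the Gata2 f/f library of its number, by 0.88, 0.90 and 0.71 log2 units, but Gata2 f/f 3 was above Gata2 KO 1 and 2. The unblocked log2 fold change was 0.79 ± 0.58 and the blocked one 0.83 ± 0.15, with an adjusted p of 0.365 in the blocked edgeR fit. Without Gata2 KO 3 the unblocked value was 0.14, without Gata2 f/f 1 or 2 it was 0.51, and without Gata2 f/f 3 it was 1.50. DESeq2 with the block gave 0.82 with an adjusted p of 0.00893, in a range from 0.00104 to 1 over the fits tried. Without Gata2 f/f 1, Gata2 f/f 2, Gata2 KO 1 or the library labelled Gata2 KO 2 the DESeq2 call was lost, with adjusted p of 0.752, 0.698, 0.578 and 0.704. Summed monocyte and macrophage markers were likewise higher in the Gata2 KO library within each number, and their part in the Phlda3 values was not tested.

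The death receptors of the list were not called between genotypes. Fas, whose product triggers apoptosis on binding its ligand, was at 3.42, 3.52 and 12.6 CPM in the floxed libraries against 7.45, 7.60 and 15.3 CPM in the knockout libraries. Within numbers 1 and 2 the log2 difference was 1.10 and 1.09, and within number 3 it was 0.28. The blocked log2 fold change of Fas was 0.82 ± 0.27, with an adjusted p of 0.421 in edgeR's quasi-likelihood test. Tnfrsf10b, the mouse receptor for TRAIL, was at 9.18, 6.87 and 16.9 CPM in the floxed libraries against 15.1, 10.1 and 16.2 CPM in the knockout libraries, with differences of 0.72, 0.55 and -0.06. Eda2r, a TNF receptor family member that binds ectodysplasin A2, gave only 12 to 19 counts a library, and its log2 fold change was -0.26 ± 0.46.

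**Figure D3:**
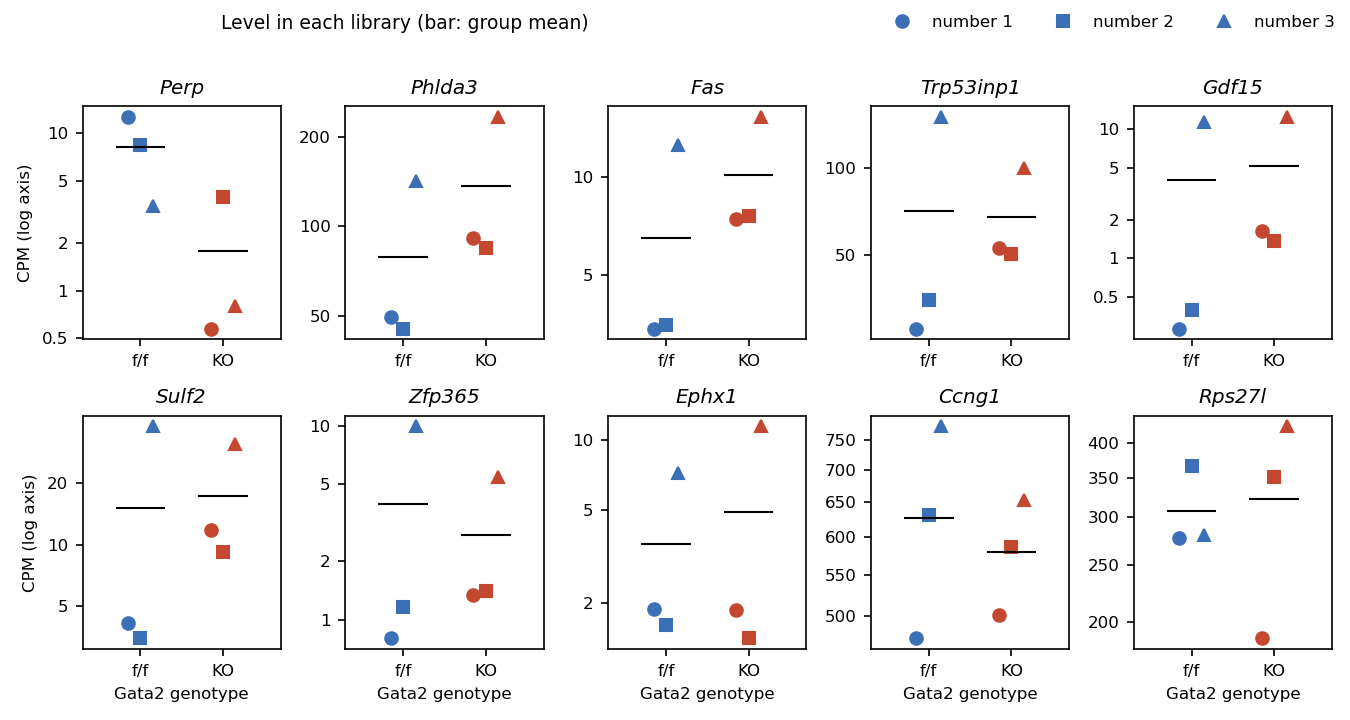
CPM of 10 of the genes in each library (log axis) by genotype, with the library number as the symbol's shape and the mean of each genotype as a line. Perp has its lowest points in Gata2 KO 1 and 3 (0.573 and 0.798 CPM), and the Phlda3 points of number 3 (142 and 234 CPM) lie above the other 4.

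Trp53inp1, a stress protein that promotes p53 phosphorylation and autophagy, was at 27.6, 34.8 and 151 CPM in the floxed libraries against 52.9, 50.4 and 100.1 CPM in the knockout libraries. Its sign differed by number, with within-number differences of 0.94, 0.53 and -0.60, and the fitted log2 fold change was -0.07 ± 0.67. The lysosomal membrane protein gene Dram1, which acts in autophagy, was at 39.2, 51.2 and 115 CPM in the floxed libraries against 81.1, 36.0 and 117 CPM in the knockout libraries. Aen, an exonuclease that enhances apoptosis, ran the other way by number, at 107, 81.3 and 42.5 CPM in the floxed libraries against 97.4, 88.0 and 68.8 CPM in the knockout libraries. Both libraries numbered 3 were thus the highest of their genotype for Trp53inp1 and Dram1 and the lowest for Aen. The remaining pair was flatter: Ei24, an endoplasmic reticulum membrane protein gene, spanned 110 to 180 CPM, and Pidd1, the scaffold that activates caspase-2, spanned 12.3 to 22.9 CPM. Their log2 fold changes were 0.04 ± 0.28 and 0.23 ± 0.30.

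Of the 6 cell cycle and growth arrest genes, 4 had a log2 fold change above 0, with a median of 0.23, and none was called between genotypes in any fit run. The polo-like kinase genes Plk2 and Plk3, which act in stress checkpoints, had the smallest p-values of this role. Plk3 was at 5.47, 2.72 and 8.32 CPM in the floxed libraries against 8.07, 5.64 and 14.0 CPM in the knockout libraries. Its within-number differences were 0.55, 1.03 and 0.75 log2 units, yet Gata2 f/f 3 exceeded Gata2 KO 1 and 2. The log2 fold change of Plk3 was 0.75 ± 0.51 without the block and 0.78 ± 0.24 with it, where edgeR's adjusted p was 0.409. Plk2 was at 5.87, 5.00 and 16.4 CPM in the floxed libraries against 12.7, 9.61 and 17.7 CPM in the knockout libraries, with differences of 1.10, 0.93 and 0.11. Its blocked log2 fold change was 0.71 ± 0.27, with an adjusted p of 0.443 from edgeR.

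Ccng1, encoding cyclin G1, a partner of protein phosphatase 2A that acts on Mdm2, had the highest level per length after Rps27l. It was at 475, 631 and 773 CPM in the floxed libraries against 501, 586 and 654 CPM in the knockout libraries, a log2 fold change of -0.11 ± 0.26 between means of 626 ± 149 and 580 ± 76.5. The genotypes overlapped, and within each the library numbered 3 was the highest. Btg2, an antiproliferative cofactor of mRNA deadenylation, was at 10.2, 10.9 and 34.9 CPM in the floxed libraries against 18.3, 14.7 and 30.6 CPM in the knockout libraries. Psrc1, a spindle microtubule protein, spanned 19.4 to 40.2 CPM with differences of 0.16, 0.36 and 0.30 within the numbers. Ckap2, also a spindle protein and 1 of the 5 genes with a printed element, was at 20.6, 24.9 and 12.6 CPM in the floxed libraries against 18.0, 18.6 and 8.40 CPM in the knockout libraries. It was lower in the Gata2 KO library of every number, by -0.19, -0.42 and -0.58 as log2 differences, and lowest in both libraries numbered 3.

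The 4 DNA repair genes had 2 log2 fold changes above 0 and a median of -0.06. Xpc, the damage sensor of nucleotide excision repair, was at 119, 132 and 84.4 CPM in the floxed libraries against 149, 145 and 54.1 CPM in the knockout libraries. Ercc5, an endonuclease of the same pathway, was at 18.6, 15.7 and 13.1 CPM and at 22.4, 19.9 and 10.6 CPM. Both had their lowest levels in the libraries numbered 3, where the Gata2 KO library was below the Gata2 f/f library, while in numbers 1 and 2 it was above. Polk, the translesion DNA polymerase kappa, spanned 10.2 to 18.4 CPM with a log2 fold change of -0.18 ± 0.29. Zfp365, a zinc finger protein of genome stability with a printed element, ran opposite to Xpc by number. It was at 0.798, 1.16 and 9.92 CPM in the floxed libraries against 1.34, 1.41 and 5.42 CPM in the knockout libraries, from 14, 26 and 249 counts and 28, 26 and 129 counts.

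Of the 10 genes of metabolism, nutrient and redox stress and secreted products, 7 had a log2 fold change above 0, with a median of 0.30. None was called between genotypes with all 6 libraries, and DESeq2 with the block called Sulf2 when Gata2 f/f 3 or Gata2 KO 3 was left out. Gdf15, a secreted stress cytokine of the TGF-beta family (ENSMUSG00000038508.7, chromosome 8, 70629393 to 70632456, minus strand), was at 0.285, 0.401 and 11.4 CPM in the floxed libraries against 1.62, 1.36 and 12.6 CPM in the knockout libraries. Its Gata2 f/f libraries 1 and 2 rested on 5 and 9 counts, and its 2 libraries numbered 3 on 286 and 299. The log2 differences within the numbers were 2.18, 1.55 and 0.14, and the blocked log2 fold change was 1.19 ± 0.49 with an adjusted p of 0.463 from edgeR. Sulf2, an extracellular sulfatase of heparan sulfate, was likewise highest in both libraries numbered 3, at 4.16, 3.48 and 37.9 CPM in the floxed libraries against 11.8, 9.17 and 31.1 CPM in the knockout libraries. Its within-number differences were 1.49, 1.38 and -0.28. Sulf2 shares 154 exonic bases with the antisense gene Ncoa3, whose reads cannot be told apart without strand.

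Sesn2 and Sesn1 encode sestrins, which restrain mTORC1 under nutrient stress. Sesn2 was at 60.6, 47.5 and 87.6 CPM in the floxed libraries against 83.0, 72.9 and 88.1 CPM in the knockout libraries, a log2 fold change of 0.32 ± 0.27. Sesn1, the other sestrin and a gene with a printed element, was lower in each number at 39.1, 44.2 and 46.0 CPM against 32.5, 41.8 and 41.1 CPM, a log2 fold change of -0.17 ± 0.22. The sestrins thus differed in sign, each within the spread between libraries. Dglucy, a mitochondrial D-glutamate cyclase, was at 91.3, 83.2 and 120 CPM in the floxed libraries against 114, 111 and 134 CPM in the knockout libraries, 0.29 ± 0.23 on the log2 scale. Ephx1, an epoxide hydrolase, was at 1.88, 1.60 and 7.21 CPM in the floxed libraries against 1.86, 1.41 and 11.4 CPM in the knockout libraries, with within-number differences of -0.01, -0.18 and 0.65. Ak1, an adenylate kinase, and Ddit4l, an inhibitor of mTOR signalling, were likewise highest in both libraries numbered 3, spanning 10.1 to 30.8 CPM and 0.525 to 2.65 CPM. Tigar, a phosphatase that lowers glycolytic flux, spanned 37.6 to 56.5 CPM with a log2 fold change of -0.09 ± 0.23. Slc19a2, a thiamine transporter, was at 47.7, 50.8 and 86.3 CPM in the floxed libraries against 64.4, 64.3 and 44.4 CPM in the knockout libraries, so its number 3 library was the highest of the first genotype and the lowest of the other.

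Of the 4 RNA binding, ribosomal and noncoding genes, 3 had a log2 fold change above 0, with a median of 0.06. Zmat3, an RNA-binding regulator of splicing, was at 50.2, 35.2 and 77.1 CPM in the floxed libraries against 57.1, 53.9 and 84.8 CPM in the knockout libraries. Rps27l was at 278, 366 and 280 CPM in the floxed libraries against 188, 351 and 427 CPM in the knockout libraries, a log2 fold change of 0.06 ± 0.33 that lay within the spread of each genotype. Trp53cor1, the long noncoding RNA known as lincRNA-p21, stayed between 2.65 and 3.37 CPM in all 6 libraries, but antisense exons overlap 48.7% of its exon length, so its count is uncertain. Pvt1, the noncoding neighbour of Myc, was at 2.91, 3.39 and 0.956 CPM in the floxed libraries against 1.62, 2.17 and 2.56 CPM in the knockout libraries. Its within-number differences of -0.81, -0.62 and 1.34 changed sign.

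More of these genes were called between library numbers than between genotypes. In edgeR's quasi-likelihood F test of the number, fitted beside genotype over all genes, 7 of the 34 had an adjusted p under 0.05, against 9.09% of all genes. All 7 were higher in number 3 than in the mean of numbers 1 and 2: Gdf15 by 3.87 log2 units (adjusted p = 0.0158), Zfp365 by 2.58 (0.0267), Sulf2 by 2.43 (0.0308), Ephx1 by 2.37 (0.0174), Trp53inp1 by 1.62 (0.0481), Phlda3 by 1.50 (0.0113) and Fas by 1.42 (0.0499). Most called genes had this direction: 911 of the 1249 called were higher in number 3, which is 6.63% of all genes. Phlda3, Trp53inp1, Sulf2 and Gdf15 kept their call when any 1 of the 6 libraries was left out. The Fas call was lost without Gata2 f/f 1, Gata2 f/f 3 or Gata2 KO 3, with adjusted p of 0.0659, 0.0752 and 0.0548 in the same edgeR test. Zfp365 lost it without Gata2 f/f 3 (0.0657) and Ephx1 without Gata2 KO 3 (0.0824). DESeq2's likelihood ratio test called 16 of the 34 between numbers, against 20.9% of all genes, and of the 16 Aen, Ckap2 and Xpc were lower in number 3.

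Both libraries numbered 3 were above the other 4 in 20 of the 34 genes, against 21.1% of all genes, and below them in 5 (Ckap2, Eda2r, Ercc5, Aen and Xpc), against 20.4% of all genes. The median log2 difference of number 3 from the mean of numbers 1 and 2 was 0.50 over the 34 and -0.01 over all genes. The libraries numbered 3 also had the most counts, the highest summed levels of the late neutrophil and monocyte markers given above, and the lowest summed level of 15 G2/M and mitosis genes, at 1521 and 1077 CPM against 2213 to 2829 CPM in the other 4. Mmp8 alone gave 992 of the 2087 CPM of late neutrophil markers in Gata2 f/f 3. S100a8, S100a9, Ngp, Cd177 and Cxcr2 were higher in Gata2 KO 1 than in Gata2 f/f 3. Camp, Ltf, Lcn2, Mmp8, Mmp9, Retnlg and Ly6g were lower in Gata2 KO 1 than in Gata2 f/f 3. The number test called 12 of 16 monocyte and macrophage markers and 4 of 11 tested late neutrophil markers, all higher in number 3, and 6 of 15 G2/M genes, all lower. Over all 13744 genes it called 911 higher and 338 lower in number 3. Of the late neutrophil markers, Retnlg was at 0 in Gata2 KO 1. The part of depth, of these cell types and of division in the values of the 34 genes was not tested.

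**Figure D4:**
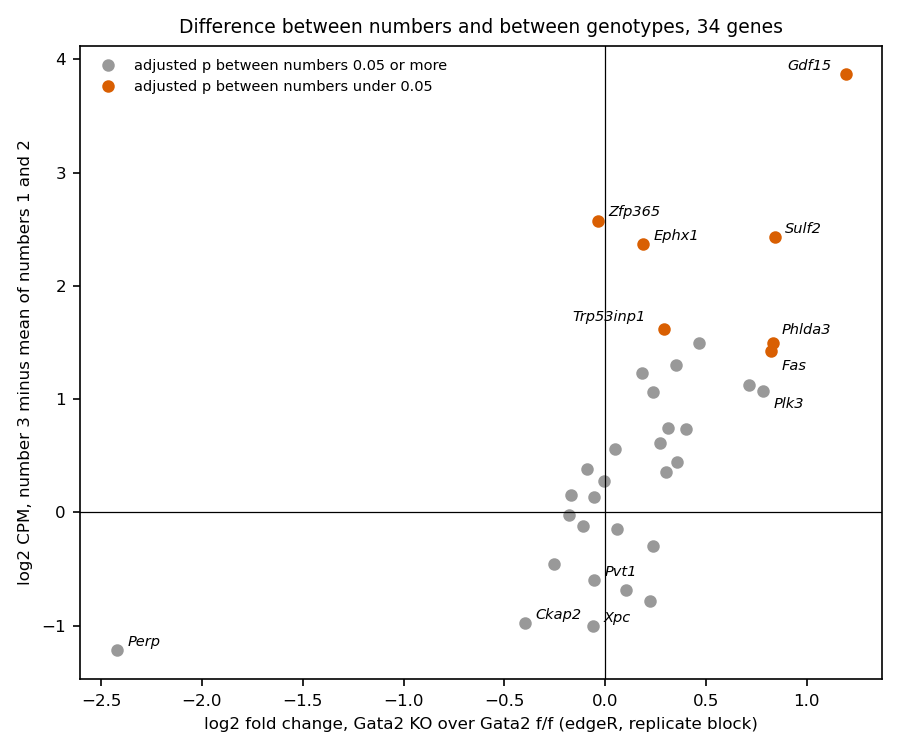
For each of the 34 genes, the log2 difference of library number 3 from the mean of numbers 1 and 2 (vertical) against the blocked log2 fold change between genotypes, knockout over floxed (horizontal), with genes called between numbers in orange. The 7 orange points lie between 1.42 and 3.87 on the vertical axis.

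Other genes of the pathway were read for comparison. Of 13 further p53 targets, 7 had a log2 fold change above 0 between genotypes with a median of 0.08, and none was called. The median log2 difference of number 3 from the mean of numbers 1 and 2 was -0.19 over these 13. Over the 34 genes it was 0.50, so the 2 lists differed in sign. Cdkn1a, the inhibitor of cyclin-dependent kinases that carries out p53 arrest, was at 233, 228 and 758 CPM in the floxed libraries against 404, 389 and 979 CPM in the knockout libraries. It was the only 1 of the 13 called between numbers (adjusted p = 0.0137 in edgeR). As for Phlda3, each knockout library was above the floxed library of its number, and both libraries numbered 3 were above the other 4. Its blocked genotype difference was 0.64 ± 0.17 with an adjusted p of 0.403 from edgeR. The pro-apoptotic genes Bax and Bbc3 each had a log2 fold change of 0.45, with SE of 0.26 and 0.29. Mdm2, itself a p53 target, was at 122, 102 and 239 CPM in the floxed libraries against 142, 119 and 171 CPM in the knockout libraries. Of 11 genes for p53 and its regulators, 5 were above 0, the median was -0.20, and none was called between genotypes or numbers. Trp53, which encodes p53, was at 191, 166 and 179 CPM in the floxed libraries against 197, 181 and 186 CPM in the knockout libraries, a log2 fold change of 0.07 ± 0.20.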

How the data were processed

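The authors deposited unnormalised counts as whole numbers in 1 table of genes by samples. Per the submitters' processing notes, mm10, DESeq2, HTSeq and kallisto were used, with no role stated. The counting tool, annotation and strand setting: not given in the sources used here. Of 49585 identifiers, 49326 matched GENCODE M21 (GRCm38) without the version, and the unmatched rows held 0.00962% of the counts. Groups and numbers came from the sample titles. Since no label says what separates the samples of a genotype, p-values measure only the spread between them, which may be technical.

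In R 4.3.3, edgeR 4.0.16 tested the 13744 genes kept by filterByExpr (minimum count 10) with TMM scaling, a quasi-likelihood fit and Benjamini-Hochberg adjustment over all of them, at a threshold of 0.05. CPM are on the TMM-scaled library size. The code of the fits was checked on simulated data with correct labels and smaller shifts between numbers than the largest seen here. That check does not measure error rates in these data. Alternatives were limma voom (3.58.1), DESeq2 (1.42.0), no filter on low counts, other scaling, the library number as a block, and leaving out libraries. Libraries of the same number correlated in their deviations from genotype means (0.29, 0.55 and 0.65 for numbers 1, 2 and 3). The numbers were therefore taken as pairing in the blocked fits and in the comparisons within a number. The main genotype fit held genotype only and did not use this pairing. Gata2 f/f 1 and Gata2 KO 2 correlated at 0.46. No libraries were duplicates, since chi-square over its degrees of freedom was never under 35.5. This lowest value came from comparing Gata2 f/f 1 with Gata2 KO 2. The next was 71.64, for Gata2 f/f 2 with Gata2 KO 2, while Gata2 f/f 1 with Gata2 KO 1 gave 150.5. Only in Gata2 f/f 1 (3.92%) and Gata2 KO 2 (3.55%) did CT010467.1 hold the most counts. What this closeness means for the Gata2 KO 2 label and for the pairing by number was not tested. DESeq2 with the block and without each library was added after seeing the data.

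All 34 genes are named. Fuller statistics were given for Perp, Phlda3 and some of the other genes with small p-values between genotypes or numbers. The genes and lists were chosen with earlier results of these data known. Promoters are from RefSeq.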

Additional observations from a re-analysis of the deposited data

How the results depend on the processing

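No call of the 34 genes between genotypes was gained under plain DESeq2, limma voom, the other scalings or no filter. With the replicate block, 22 of the 34 genes were higher in knockouts, at a median log2 difference of 0.21, and edgeR called none. Between genotypes DESeq2 called 7 of all genes, DESeq2 with the replicate block 222 with 2 of the 34, and edgeR with the replicate block without the library labelled Gata2 KO 2 called 54 with 1 of the 34. The DESeq2 block fit called 1 of the 34 and 65 of all genes when Gata2 f/f 2 was left out, 3 and 393 for Gata2 f/f 3, 1 and 67 for Gata2 KO 2, and 4 and 398 for Gata2 KO 3. For Gata2 f/f 1 and Gata2 KO 1 it called 0 of the 34, and 32 and 38 of all genes, so the count among the 34 moved with the total. By construction, the library that shares the number left out then adds nothing to the genotype difference. DESeq2's likelihood ratio test called 16 of the 34 and 2870 of all genes between numbers, and edgeR called 757 to 3460 of all genes when 1 library was left out.

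Several log2 fold changes changed sign, and the cause was not tested. None of these genes was called with all 6 libraries, but DESeq2 with the block called Sulf2 without Gata2 f/f 3 and both Sulf2 and Trp53inp1 without Gata2 KO 3. Without a filter Ei24 was -0.024 and Xpc -0.0019. With limma voom Trp53inp1 was 0.28, Xpc -0.063, Rps27l -0.0064 and Pvt1 0.023. With the replicate block Trp53inp1 was 0.29, Xpc -0.059 and Rps27l -0.0065, and in DESeq2 with it 0.27, -0.078 and -0.026. With the block and without the library labelled Gata2 KO 2, Trp53inp1 was 0.16, Xpc -0.16, Ercc5 -0.022 and Pvt1 0.27. Without both libraries numbered 3, Aen was -0.055, Trp53inp1 0.69, Polk 0.12, Zfp365 0.44, Tigar 0.043, Ephx1 -0.12, Slc19a2 0.35 and Rps27l -0.29.

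Leaving out 1 library in turn, the median of the 34 ran from -0.075 to 0.44. Log2 fold changes ran from -0.17 to 0.23 for Ei24, -0.19 to 0.40 for Aen, -0.49 to 1.08 for Trp53inp1, -0.25 to 0.74 for Dram1, -0.32 to 0.030 for Ccng1, -0.20 to 0.97 for Btg2, -0.18 to 0.37 for Xpc, -0.069 to 0.40 for Ercc5, -1.55 to 1.44 for Zfp365, -0.27 to 1.18 for Ddit4l, -0.30 to 0.0065 for Tigar, -0.28 to 0.62 for Ak1, -1.14 to 1.46 for Ephx1, -0.29 to 0.19 for Slc19a2, -0.55 to 2.15 for Sulf2, -1.45 to 3.85 for Gdf15, -0.21 to 0.31 for Rps27l, -0.037 to 0.13 for Trp53cor1 and -0.61 to 0.14 for Pvt1. Depth limits Eda2r, at 12 to 19 counts a library, and Gdf15, at 5 and 9 counts in Gata2 f/f 1 and 2.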
